A study of Mus musculus with 8 samples.

Results

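The 6 mucin genes Muc1, Muc2, Muc4, Muc5ac, Muc5b and Muc16 were followed in RNA sequencing of mouse olfactory epithelium, the sheet of the nasal cavity that holds the odour-sensing neurons. They were chosen by gene name, as the rows of the deposited read-count table that carry these symbols, and made up 6 of its 25913 rows. All 6 were among the 17381 rows that passed the filter on low counts. The members hold the gel-forming mucins Muc5b, Muc5ac and Muc2 and the membrane mucins Muc1, Muc4 and Muc16.

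Each group held 4 libraries from C57BL/6J mice aged 40 weeks. One group was titled OMP_IGF1R (replicates 11, 12, 17 and 18) and the other IGF1R_flfl (replicates 1, 2, 13 and 3). The study concerned tissue-specific removal of Igf1r, the receptor of insulin-like growth factor 1. The OMP_IGF1R titles also hold the name of Omp, a protein of mature olfactory neurons, but do not state where the receptor was removed. The genotype labels run against the titles: OMP_IGF1R libraries carry "OMPflfl (Ctrl)" and IGF1R_flfl libraries carry "OMPIGF1 (KO)". Groups are therefore named by title, a positive log2 fold change means a higher level in libraries titled OMP_IGF1R, and which of the groups lacked the receptor depends on which label is right. Omp is a gene of mature neurons, whereas mucins are products of gland and surface epithelial cells. Whether each library is a separate animal is not said in the labels, and the p-values reflect the spread between libraries, which may be technical. Library numbers in the titles also fall in separate ranges for the groups, and a batch that follows them cannot be told apart from the group.

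Mucins are large glycoproteins whose serine, threonine and proline rich stretches carry dense O-linked sugars. Gel-forming mucins are packed into granules of goblet and gland cells, released, and swell into the mucus that traps particles and covers the cilia. Membrane mucins stay anchored at the cell surface as a glycocalyx and can signal through their cytoplasmic tails. In the nose, Bowman's glands and other nasal glands supply mucus over the olfactory surface, and goblet cells supply it over the neighbouring respiratory surface.

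Depth was 18802471 to 27793375 counts per library. Igf1r averaged 42.1 ± 6.32 CPM (counts scaled to a common library size) in OMP_IGF1R libraries and 66.5 ± 7.65 CPM in IGF1R_flfl libraries (SD, n = 4 each; log2 fold change -0.66, edgeR adjusted p = 0.0117). Omp averaged 1969 ± 224 CPM in OMP_IGF1R libraries and 5386 ± 989 CPM in IGF1R_flfl libraries (log2 fold change -1.45, edgeR adjusted p = 0.00179). Both genes thus fell in the libraries whose genotype label names the control. Counts over the whole Igf1r gene include other cells and exons outside any deleted part, and do not measure the deletion. All 9 of 9 mature neuron markers fell at an edgeR adjusted p under 0.05, where 5.37% of all tested genes did. Their summed levels were 6025 to 7261 CPM in OMP_IGF1R libraries and 9377 to 12736 CPM in IGF1R_flfl libraries. In bulk tissue, fewer cells of a type and less RNA per cell cannot be told apart, and this holds for every mucin value below. Library OMP_IGF1R 17 stood apart in squamous and skeletal muscle markers, and IGF1R_flfl 2 in olfactory bulb and oligodendrocyte markers.

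None of the 6 mucin genes passed the test between the groups. By edgeR's quasi-likelihood test with adjustment over all genes, 0 of the 6 passed an adjusted p of 0.05, where 8.20% of all tested genes did (2.83% higher and 5.37% lower in OMP_IGF1R libraries). That balance depends on scaling: 492 genes were higher and 933 lower with TMM, 516 and 848 with DESeq2 size factors, 592 and 742 with upper-quartile factors, and 775 and 542 with raw library totals, which turns it round. Before adjustment, Muc5b and Muc16 had a p under 0.05, which is 2 of 6, against 23.5% of all tested genes. Limma voom called 0 of the 6, and DESeq2 called 0 of the 5 to which it gave a p, Muc5ac being the one without. A positive log2 fold change was found for 5 of the 6, against 47.5% of all genes, with Muc5ac the exception. The groups were free of overlap for 0 of the 6, against 16.9% of all genes. Muc5ac ranged widely between libraries. Every member had a larger SD in the IGF1R_flfl group than in the OMP_IGF1R group. For Muc2 it was 23.8 CPM against 6.59 CPM, and for Muc16 it was nearly equal, at 3.17 CPM against 3.01 CPM.

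**Figure D1:**
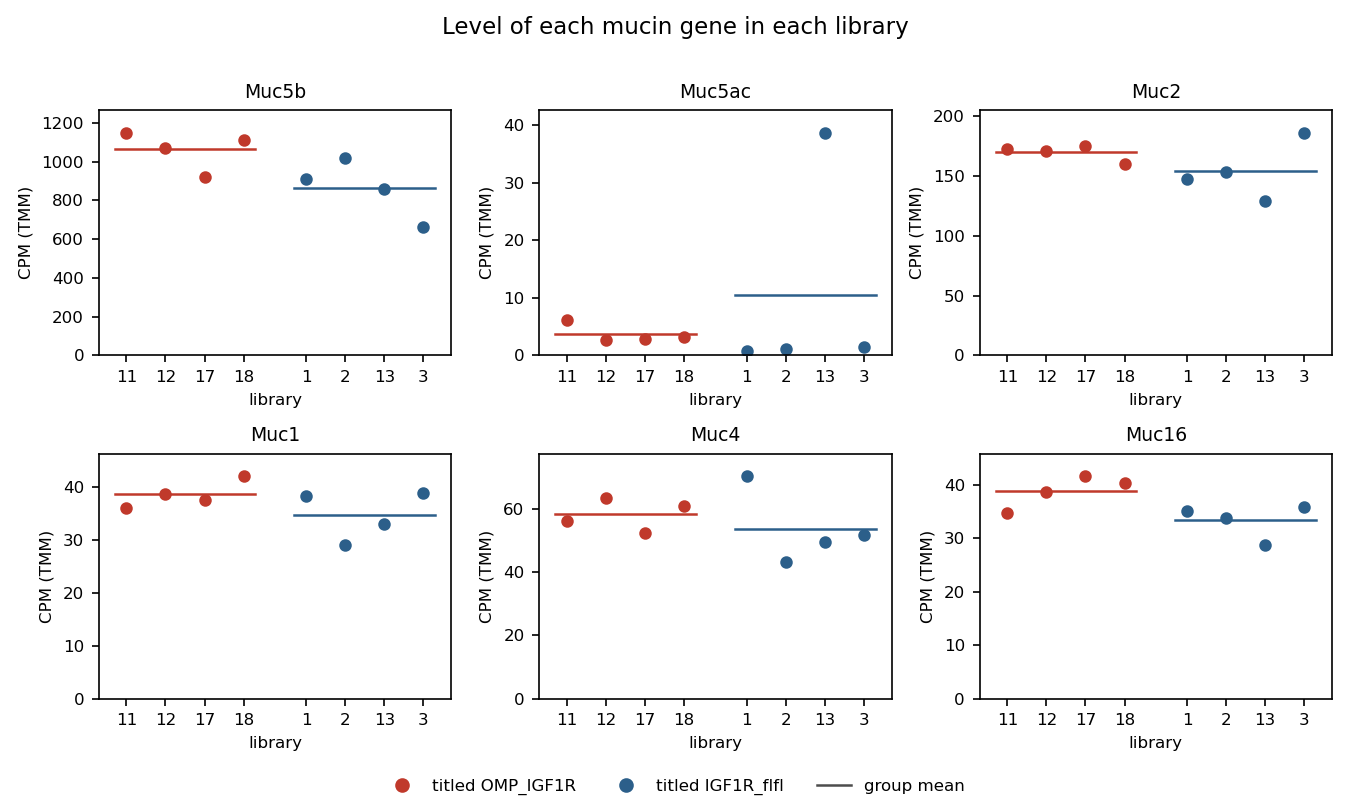
CPM of each mucin gene (vertical axes, linear and starting at 0) in each library (points, by replicate number), with the group mean as a line. The OMP_IGF1R and IGF1R_flfl points overlap in every panel, and the 38.7 CPM of Muc5ac in IGF1R_flfl 13 is the point farthest from its group.

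Muc5b (ENSMUSG00000066108, chromosome 7, 141839072 to 141873085, GRCm38), a gel-forming mucin of airway glands, had the most reads of the members. It stood at 1151, 1071, 923 and 1110 CPM in OMP_IGF1R 11, 12, 17 and 18, against 910.5, 1018, 861 and 660.3 CPM in IGF1R_flfl 1, 2, 13 and 3. The 3 highest libraries were OMP_IGF1R 11, 18 and 12 and the lowest was IGF1R_flfl 3, but IGF1R_flfl 2 lay above OMP_IGF1R 17, so the groups overlapped. The means were 1064 ± 99.6 CPM in OMP_IGF1R libraries and 863 ± 150 CPM in IGF1R_flfl libraries (SD, n = 4 each). The log2 fold change was 0.30 (SE 0.128, 95% interval 0.015 to 0.59), with an edgeR adjusted p of 0.190. This rests on 16652 to 28919 reads per library, so counting error is small beside the spread between libraries. Leaving out IGF1R_flfl 3 gave a log2 fold change of 0.20, the smallest of the leave-one-out values, and leaving out IGF1R_flfl 2 gave 0.40, the largest, with adjusted p of 0.273 and 0.0755 by edgeR.

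The gland markers in the same libraries were uneven. Of 18 olfactory gland markers tested, 0 passed in either direction, where 8.20% of all genes did. Their summed level was 22080 to 36942 CPM in OMP_IGF1R libraries and 15899 to 39676 CPM in IGF1R_flfl libraries. The lowest sum was in IGF1R_flfl 3, which also had the lowest Muc5b. The highest was in IGF1R_flfl 13, where Muc5b was close to its group mean. That sum does not stand for the whole list: 5 of its 18 genes were highest in IGF1R_flfl 13, Obp1a at 11994 CPM among them, and 3 were lowest there, Bpifb9b at 33.6 CPM among them, against 512 to 8006 CPM elsewhere. By edgeR before adjustment, 5 of the 18 had a p under 0.05, where 23.5% of all tested genes did. Sox9, Aqp5, Gpx6 and Bpifb6 were higher in OMP_IGF1R libraries, and Dcpp1 was lower. Gpx6 and Sox9 were lowest in IGF1R_flfl 3, as Muc5b was, and Aqp5, Bpifb6 and Dcpp1 were not. The median log2 fold change of the list was 0.08 (-0.01 over all genes tested). Of 8 respiratory secretory markers tested of 12, 1 was higher (Spdef) and 0 lower, where 2.83% and 5.37% of all genes were. Sums ran from 17458 to 24328 CPM in OMP_IGF1R libraries and from 14571 to 19172 CPM in IGF1R_flfl libraries. The defining markers Scgb1a1 and Tff3 of that list were at 0 in every library. The part of gland and secretory cell content in the Muc5b values was not tested.

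Muc5ac (ENSMUSG00000037974, chromosome 7, 141788972 to 141819231), the gel-forming mucin of surface goblet cells, had the lowest mean CPM of the members in each group and the widest spread. In IGF1R_flfl 13, however, its CPM exceeded those of the Muc1 row and of the partial Muc16 row. It had 119, 71, 62 and 83 reads in OMP_IGF1R 11, 12, 17 and 18, against 20, 27, 853 and 37 reads in IGF1R_flfl 1, 2, 13 and 3. In CPM these were 6.07, 2.68, 2.74 and 3.19 in the OMP_IGF1R libraries and 0.724, 1.03, 38.7 and 1.47 in the IGF1R_flfl libraries. A single library, IGF1R_flfl 13, was thus far above all others, and the remaining IGF1R_flfl libraries were below every OMP_IGF1R library. The means were 3.67 ± 1.62 CPM in OMP_IGF1R libraries and 10.5 ± 18.8 CPM in IGF1R_flfl libraries (SD, n = 4 each), and the SD of the IGF1R_flfl libraries exceeded their mean. The log2 fold change was -1.51 (SE 1.15, 95% interval -4.10 to 1.08), with an edgeR adjusted p of 0.477.

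The direction for Muc5ac rested on that library. Without IGF1R_flfl 13 the log2 fold change turned to 1.78 (SE 0.378, 3.42-fold higher in OMP_IGF1R libraries, edgeR adjusted p = 0.0340), and Muc5ac passed the threshold. In that fit of 17536 genes, 2.26% were called higher. With every other single library left out it was -1.91 to -1.39 and not called, and limma voom with sample weights, over all 8 libraries, put it at -0.05. DESeq2 gave no p for this gene, and the authors' deposited table likewise lists none.

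**Figure D2:**
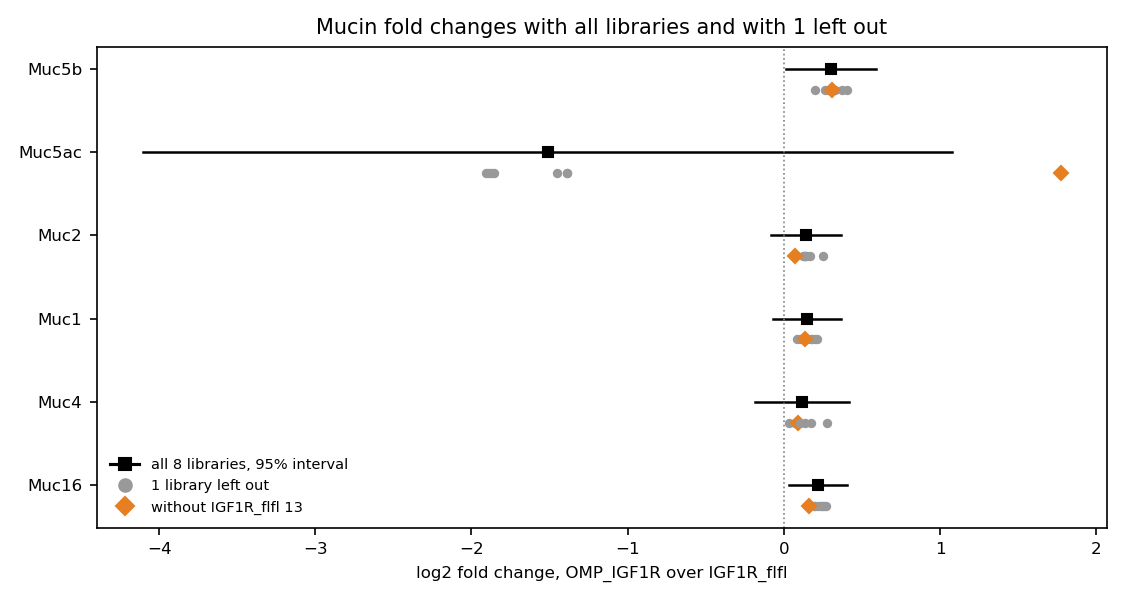
Log2 fold change of each mucin gene, OMP_IGF1R over IGF1R_flfl (horizontal axis), as squares with 95% intervals from all 8 libraries, and below each square the values with 1 library left out (circles; diamonds without IGF1R_flfl 13). The Muc5ac diamond sits at 1.78 while its square sits at -1.51, and the other 5 genes keep a positive value throughout.

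Of the mucus protein partners with a read in any library, 4 of 10 had their highest level in IGF1R_flfl 13, the library with high Muc5ac, and 6 had it elsewhere. The share of all genes that were highest in that library was not computed, so this count has no background to be read against. Clca3 (ENSMUSG00000028255, named Clca1 in GENCODE M21), a secreted protein of goblet cell mucus, stood at 3.95 CPM in IGF1R_flfl 13, against at most 0.0768 CPM in any other library, with 0 in 5 of the 8 libraries. Tff1, a trefoil peptide secreted with gastric mucus, stood at 0.863 CPM in IGF1R_flfl 13 and at most 0.204 CPM elsewhere. Dmbt1, a scavenger protein of mucosal secretions, stood at 349 CPM in IGF1R_flfl 13, but also at 315 CPM in OMP_IGF1R 17, and at 2.24 to 29.5 CPM in the other libraries. Tff2, another trefoil peptide, stood at 24.8, 27.5, 27.2 and 31.5 CPM in OMP_IGF1R 11, 12, 17 and 18, against 19.9, 20.3, 35.7 and 19.7 CPM in IGF1R_flfl 1, 2, 13 and 3. Ern2, a stress sensor of the endoplasmic reticulum found in mucous epithelia, stood at 1.14 CPM in IGF1R_flfl 13 and at 0.152 to 0.663 CPM in the other libraries. These genes were picked because they were highest in IGF1R_flfl 13. Others of the same lists were not: Spdef stood at 13.9 CPM there, against 16.7 to 18.3 CPM in OMP_IGF1R libraries, and Agr2 at 238 CPM there, against 252 CPM in OMP_IGF1R 17. Itln1, Clca2, Fcgbp and Spdef were lower in every IGF1R_flfl library than in every OMP_IGF1R library, so this was not particular to IGF1R_flfl 13. Within the IGF1R_flfl group, Fcgbp, Itln1, Spdef and Agr2 were highest in IGF1R_flfl 13. Clca2 was not, at 5.22 CPM there against 5.87 CPM in IGF1R_flfl 2. Muc2 was at its lowest of the 8 libraries in IGF1R_flfl 13. Tff3 and Zg16, typical goblet cell products of the intestine, were at 0 in every library. Odorant-binding and lipocalin genes of nasal glands were also uneven: Lcn4 stood at 1.07, 4.30, 319 and 11.4 CPM in OMP_IGF1R 11, 12, 17 and 18, against 0.579, 27.6, 322 and 34.6 CPM in IGF1R_flfl 1, 2, 13 and 3. Lcn4 was thus high in OMP_IGF1R 17 as well, where Muc5ac was 2.74 CPM. The part of nasal gland or goblet cell content in the Muc5ac value of IGF1R_flfl 13 was not tested.

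Near-identical copies of a sequence inside 1 gene are a feature of mucins, and the Muc5ac coding sequence shows it. Of its 10266 windows of 100 bases, the read length, 20.2% occurred more than once within the coding sequence, and 0 occurred in a transcript of another gene. The share was 16.7% for Muc5b, 2.50% for Muc4 and 0 for Muc1. How the authors' counting treated reads with several placements inside a gene is not given in the sources used here. A pair of neighbouring repeat units of Muc5ac, each of 48 bases (16 codons), is shown with the codons for serine, threonine or proline in capitals, since these residues mark the sugar-bearing mucin domains (GENCODE M21, GRCm38, plus strand).

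Muc5ac unit 1: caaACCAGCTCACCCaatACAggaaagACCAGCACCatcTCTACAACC

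Muc5ac unit 2: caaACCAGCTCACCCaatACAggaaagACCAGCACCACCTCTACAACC

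The units start at coding base 5698 and at base 5746 and matched at 97.9% of their bases. They lie in a repeated stretch of 1191 bases, in which 11 and 12 of the 16 codons of these units encode serine, threonine or proline. Over the whole coding sequence that share was 31.2%. In Muc5b, no unit of up to 300 bases was found at 80% identity. The repeated unit was a long one of 888 bases, of which the most alike neighbouring copies matched at 97.0% of their bases.

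Muc2 (ENSMUSG00000025515, chromosome 7, 141746832 to 141754690), a gel-forming mucin best known from the intestine, was even among OMP_IGF1R libraries and less so among IGF1R_flfl libraries. It stood at 173, 171, 175 and 160.4 CPM in OMP_IGF1R 11, 12, 17 and 18, against 148, 153, 129 and 187 CPM in IGF1R_flfl 1, 2, 13 and 3. IGF1R_flfl 3 was the highest library and IGF1R_flfl 13 the lowest, and the OMP_IGF1R libraries lay between them. The means were 169.9 ± 6.59 CPM in OMP_IGF1R libraries and 154 ± 23.8 CPM in IGF1R_flfl libraries (SD, n = 4 each; log2 fold change 0.14, SE 0.0999, 95% interval -0.08 to 0.36, edgeR adjusted p = 0.444). Leaving out IGF1R_flfl 3 gave a log2 fold change of 0.25 (edgeR adjusted p = 0.0804), and leaving out IGF1R_flfl 13 gave 0.07 (edgeR adjusted p = 0.666). The order of these libraries was unlike that of Muc5b, in which IGF1R_flfl 3 was the lowest.

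The Muc2 row covers the 3' end of the gene: it spans 12.2% of the GENCODE M21 gene (141690340 to 141754693) and 2032 exon bases. Rows named CAAA01115770.1 and CAAA01221083.1 lie inside the same gene, upstream of it. Per kilobase of exon, the Muc2 row averaged 83.6 CPM in OMP_IGF1R libraries and 75.9 CPM in IGF1R_flfl libraries. CAAA01115770.1 averaged 15.9 CPM per kilobase in each group and CAAA01221083.1 averaged 15.5 CPM per kilobase in OMP_IGF1R libraries and 16.5 CPM per kilobase in IGF1R_flfl libraries. Neither upstream row passed (edgeR adjusted p = 0.984 and 0.880). Summing the 3 rows, a step chosen after seeing the data, gave a Muc2 log2 fold change of 0.12 (edgeR adjusted p = 0.435).

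The gel-forming mucins lie side by side on chromosome 7, the chromosome that also carries Igf1r and Omp. Muc2 starts 73.5 Mb from Igf1r and 43.6 Mb from Omp. Within 200 kb of Muc2, Muc5ac or Muc5b, none of the few tested neighbours passed, where 8.20% of all tested genes did. Among them was Muc6, a gel-forming mucin of stomach glands, at 0.990 ± 0.385 CPM in OMP_IGF1R libraries and 0.703 ± 0.125 CPM in IGF1R_flfl libraries (edgeR adjusted p = 0.379). Tollip, an adaptor that dampens Toll-like receptor signals and lies next to Muc5b, had a log2 fold change of -0.31 (edgeR adjusted p = 0.125). Brsk2, a kinase of neurons, had -0.27 (edgeR adjusted p = 0.121), and Ap2a2, a clathrin adaptor subunit, had -0.05 (edgeR adjusted p = 0.562). Mob2, a kinase cofactor, had -0.04 (edgeR adjusted p = 0.714), and Gm20501, for which no role is given here, had -0.24 (edgeR adjusted p = 0.755).

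Muc1 (ENSMUSG00000042784, chromosome 3, 89229057 to 89233381), a membrane mucin of many glandular epithelia, ranged from 29.0 to 42.0 CPM. It stood at 35.9, 38.7, 37.5 and 42.0 CPM in OMP_IGF1R 11, 12, 17 and 18, against 38.2, 29.0, 32.9 and 38.8 CPM in IGF1R_flfl 1, 2, 13 and 3. OMP_IGF1R 18 was highest and IGF1R_flfl 2 lowest, and the groups overlapped. The means were 38.5 ± 2.59 CPM in OMP_IGF1R libraries and 34.7 ± 4.67 CPM in IGF1R_flfl libraries (SD, n = 4 each; log2 fold change 0.15, SE 0.0971, 95% interval -0.07 to 0.37, edgeR adjusted p = 0.393). The extracellular part of Muc1 is built of repeats, of which neighbouring units of 63 bases (21 codons) are shown with the same use of capitals.

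Muc1 unit 1: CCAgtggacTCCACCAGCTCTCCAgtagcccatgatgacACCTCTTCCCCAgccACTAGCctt

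Muc1 unit 2: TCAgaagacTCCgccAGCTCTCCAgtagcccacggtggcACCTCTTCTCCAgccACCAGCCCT

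These units start at coding bases 610 and 673 and matched at 84.1% of their bases. In each, 12 codons encode serine, threonine or proline, 57.1% of the unit, against 44.1% of the whole coding sequence. No window of 100 bases recurred within Muc1, unlike in Muc5ac, where 20.2% of the windows did.

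Muc4 (ENSMUSG00000079620, chromosome 16, 32735886 to 32782391), a membrane mucin that binds the receptor ErbB2, differed little on average and more within the IGF1R_flfl group. It stood at 56.2, 63.6, 52.5 and 61.1 CPM in OMP_IGF1R 11, 12, 17 and 18, against 70.5, 43.2, 49.7 and 51.8 CPM in IGF1R_flfl 1, 2, 13 and 3. The highest and the lowest library were both titled IGF1R_flfl, and they enclosed the OMP_IGF1R values. The means were 58.3 ± 4.95 CPM in OMP_IGF1R libraries and 53.8 ± 11.7 CPM in IGF1R_flfl libraries (SD, n = 4 each; log2 fold change 0.12, SE 0.135, 95% interval -0.19 to 0.42, edgeR adjusted p = 0.654). Leaving out IGF1R_flfl 1 gave 0.27 (edgeR adjusted p = 0.111), and leaving out IGF1R_flfl 2 gave 0.04 (edgeR adjusted p = 0.886). The 3' end of Muc4 overlaps Muc20, which lies on the other strand, and 1.33% of the 100-base windows of Muc4 also occur in transcripts of Muc20. Reads there could be shared if strand was not used in counting. A pair of neighbouring Muc4 repeat units of 171 bases, marked in the same way, shows a repeat longer than that of Muc1 and Muc5ac.

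Muc4 unit 1: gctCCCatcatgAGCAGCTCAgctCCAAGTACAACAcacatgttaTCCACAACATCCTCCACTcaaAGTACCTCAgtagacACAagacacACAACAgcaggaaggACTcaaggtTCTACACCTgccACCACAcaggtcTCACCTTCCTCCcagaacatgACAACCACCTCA

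Muc4 unit 2: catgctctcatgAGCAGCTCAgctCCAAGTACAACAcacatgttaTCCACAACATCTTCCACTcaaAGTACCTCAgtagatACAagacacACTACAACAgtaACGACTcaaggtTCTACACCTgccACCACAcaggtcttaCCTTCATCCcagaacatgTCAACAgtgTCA

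These units start at coding bases 3862 and 4033, matched at 89.5% of their bases, and have 59.6% and 57.9% of their codons for serine, threonine or proline.

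Muc16 (ENSMUSG00000032134, chromosome 9, 18495455 to 18512885), a very large membrane mucin of wet surfaces, had the smallest edgeR p of the members, while Muc5b had the smallest by DESeq2. It stood at 34.7, 38.7, 41.7 and 40.4 CPM in OMP_IGF1R 11, 12, 17 and 18, against 35.2, 33.9, 28.8 and 35.8 CPM in IGF1R_flfl 1, 2, 13 and 3. The 3 highest libraries were titled OMP_IGF1R, but OMP_IGF1R 11 lay below IGF1R_flfl 1 and 3. The means were 38.9 ± 3.01 CPM in OMP_IGF1R libraries and 33.4 ± 3.17 CPM in IGF1R_flfl libraries (SD, n = 4 each). The log2 fold change was 0.22 (SE 0.0833, 95% interval 0.03 to 0.41, edgeR adjusted p = 0.149). The deposited row covers 9.73% of the GENCODE M21 gene of that symbol, which has another ID there (18495455 to 18674530, minus strand), at its 3' end, and 1035 exon bases, so it measures the part that encodes the C-terminal end of the protein.

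Levels can be set against each other only per length and only for the 4 members whose row spans the gene. Per kilobase of exon, Muc5b averaged 71.1 CPM in OMP_IGF1R libraries and 57.7 CPM in IGF1R_flfl libraries. Muc1 averaged 16.4 CPM per kilobase in OMP_IGF1R libraries and 14.8 CPM per kilobase in IGF1R_flfl libraries, and Muc4 averaged 4.96 CPM per kilobase in OMP_IGF1R libraries and 4.58 CPM per kilobase in IGF1R_flfl libraries. Muc5ac averaged 0.341 CPM per kilobase in OMP_IGF1R libraries and 0.976 CPM per kilobase in IGF1R_flfl libraries. The order Muc5b, Muc1, Muc4, Muc5ac held in each of the 8 libraries, also in IGF1R_flfl 13. Muc2 and Muc16 are left out of this order, because their rows cover the 3' end alone.

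**Figure D3:**
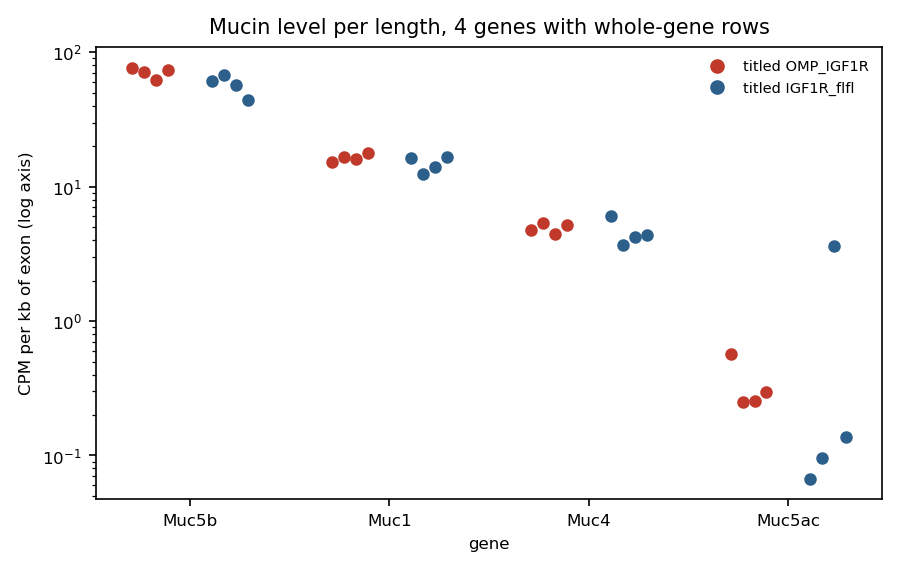
CPM per kilobase of exon (vertical log axis) of the 4 mucin genes whose row spans the gene, with 1 point per library, OMP_IGF1R libraries left of IGF1R_flfl libraries. Muc5b is highest in every library and Muc5ac lowest, with the IGF1R_flfl 13 point of Muc5ac near the level of Muc4.

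The members did not follow a common order over the 8 libraries. Described by the log2 CPM of the 8 libraries, Muc1 and Muc4 had the highest Pearson r of the 15 pairs (0.76, Spearman rho 0.60), followed by Muc2 and Muc16 (0.70, rho 0.60). After group means were subtracted these were 0.73 and 0.59. Muc1 and Muc16 had the highest Spearman rho of the 15 pairs (0.71), with an r of 0.64, which became 0.46. Muc5b had an r of -0.09 with Muc2, -0.04 with Muc1 and 0.08 with Muc5ac, which became -0.61, -0.55 and 0.00 after subtraction. With Muc4 and Muc16 the r of Muc5b was 0.23 and 0.25, which became 0.02 and -0.38. Muc5ac and Muc16 had an r of -0.51, which became -0.84, the largest in size of the 15 pairs, with a Spearman rho of -0.10 before subtraction. IGF1R_flfl 13 held both the highest Muc5ac (38.7 CPM) and the lowest Muc16 (28.8 CPM) of the libraries, and r without it was not computed. The libraries share depth and dissection, and these values describe 8 points.

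Of 14740 other genes with a mean log2 CPM of at least 1, those most like Muc5b over the 8 libraries were Mfsd7c, B430305J03Rik and Jph2, with Pearson r of 0.99, 0.98 and 0.98. Those most like Muc5ac were Gm15283 (0.98), Mgat3 (0.95), an enzyme that adds bisecting N-acetylglucosamine to N-linked sugars, and Tfcp2l1 (0.94), a transcription factor of secretory ducts. Tfcp2l1 stood at 51.8, 52.6, 46.5 and 45.8 CPM in OMP_IGF1R 11, 12, 17 and 18, against 40.1, 39.5, 68.3 and 38.7 CPM in IGF1R_flfl 1, 2, 13 and 3. It was chosen for likeness to Muc5ac, so its high level in IGF1R_flfl 13 follows from that choice. Closest to Muc2 were Kctd3 (0.96), Mrpl37 (0.96) and Gm16534 (0.95), and closest to Muc1 were Cblb (0.98), Pmm2 (0.97) and Mdm1 (0.96). Closest to Muc4 were D630013G24Rik (0.96), Fbxo18 (0.96) and Igf2r (0.95), and closest to Muc16 were Rsl24d1 (0.98), Gm9747 (0.96) and A430110N23Rik (0.96). Such high values arise readily when so many genes are ranked over 8 libraries. None of these 18 genes passed the test between the groups, where 8.20% of all tested genes did.

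Among mucins outside the 6, Muc15 and Muc20 rose. Of 14 other mucins and mucin-like genes, 10 were found and 9 tested, of which 2 rose and 0 fell. Of all genes tested, 2.83% rose and 5.37% fell. The median log2 fold change of the list was 0.21 (-0.01 over all genes tested). Muc15, a membrane mucin, averaged 16.3 ± 1.82 CPM in OMP_IGF1R libraries and 11.4 ± 1.03 CPM in IGF1R_flfl libraries, with no overlap (log2 fold change 0.51, edgeR adjusted p = 0.0211). Its call was lost without OMP_IGF1R 11 or OMP_IGF1R 12 (highest adjusted p by edgeR 0.0661). Muc20, a membrane mucin linked to the receptor Met, averaged 26.6 ± 1.25 CPM in OMP_IGF1R libraries and 21.1 ± 2.32 CPM in IGF1R_flfl libraries (log2 fold change 0.34, edgeR adjusted p = 0.0427). The Muc20 call was lost without OMP_IGF1R 11, 12 or 18 or IGF1R_flfl 1 or 3 (highest adjusted p by edgeR 0.122). Its overlapping neighbour Muc4 did not pass. For the other members, the nearest tested genes on each side were Thbs3 and Trim46 beside Muc1, Gm10818 and Muc20 beside Muc4, and Zfp558 and Olfr24 beside Muc16. Of these Muc20 was called, and Trim46, a protein of the neuronal axon start, came next (log2 fold change 0.44, edgeR adjusted p = 0.0586).

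Among the proteins secreted with mucins, Fcgbp, Itln1 and Clca2 rose. Of 13 listed, 12 were found and 8 tested, of which 3 rose and 0 fell, where 2.83% of all genes rose and 5.37% fell. The median log2 fold change of the list was 0.49. Fcgbp, a large mucus protein that links to gel-forming mucins, stood at 104, 315, 144 and 202 CPM in OMP_IGF1R 11, 12, 17 and 18, against 19.8, 16.5, 42.1 and 15.8 CPM in IGF1R_flfl 1, 2, 13 and 3. Every OMP_IGF1R library was above every IGF1R_flfl library, and IGF1R_flfl 13 was again the highest of its group (log2 fold change 3.03, SE 0.417, edgeR adjusted p = 0.00525). Itln1, a lectin released by goblet cells, stood at 1.68, 2.64, 3.14 and 3.92 CPM in OMP_IGF1R libraries, against 0.362, 0.610, 1.09 and 0.833 CPM in IGF1R_flfl libraries (log2 fold change 1.99, edgeR adjusted p = 0.0122). Clca2, listed as Clca3a2 in GENCODE M21, stood at 9.95, 10.9, 19.6 and 9.83 CPM in OMP_IGF1R libraries, against 4.49, 5.87, 5.22 and 3.45 CPM in IGF1R_flfl libraries (log2 fold change 1.40, edgeR adjusted p = 0.0130). These 3 calls held with each single library left out. Agr2, a disulfide isomerase needed for mucin folding, averaged 239 ± 13.2 CPM in OMP_IGF1R libraries and 215 ± 24.8 CPM in IGF1R_flfl libraries and did not pass (edgeR adjusted p = 0.325).

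**Figure D4:**
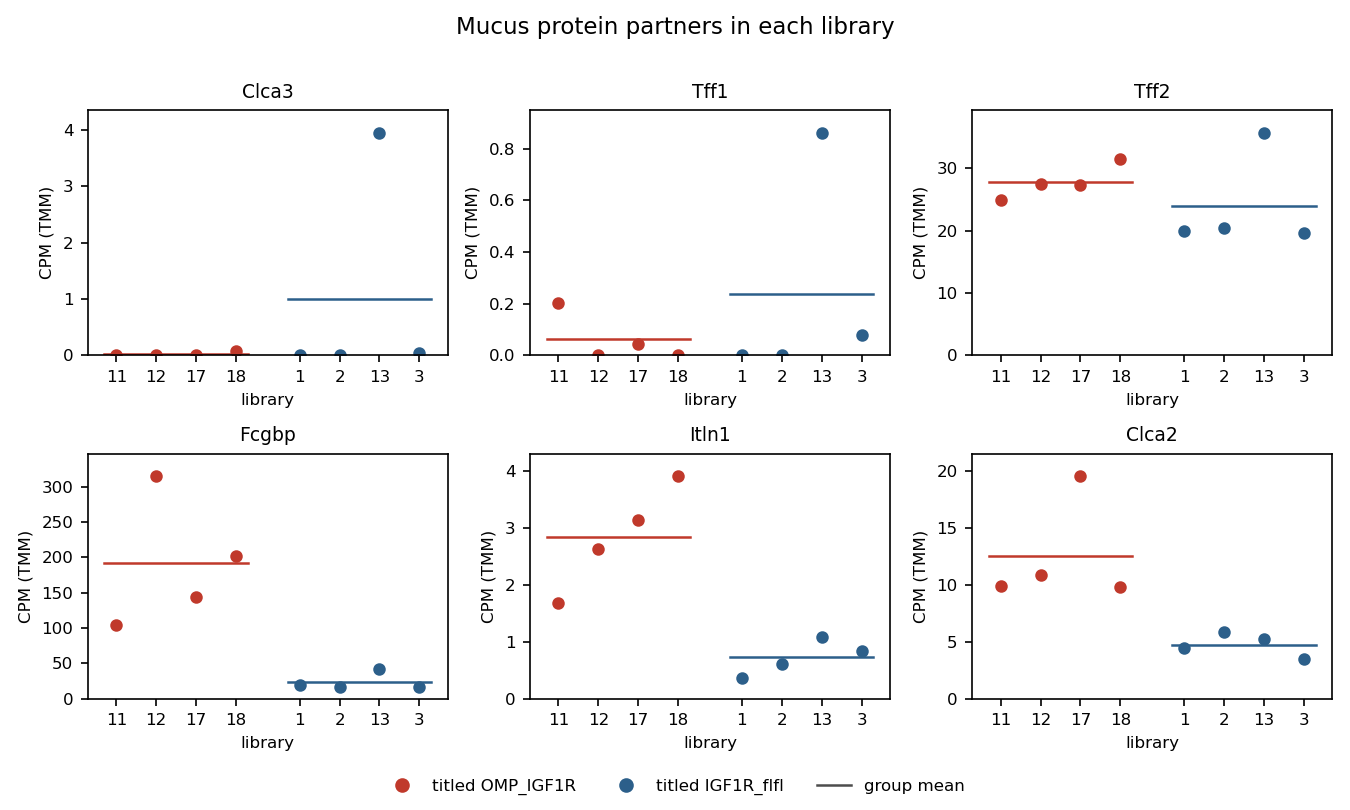
CPM of 6 mucus protein genes (vertical axes, linear and starting at 0) in each library (points, by replicate number), with group means as lines. Fcgbp, Itln1 and Clca2 are higher in every OMP_IGF1R library than in any IGF1R_flfl library, while Clca3 and Tff1 are high in IGF1R_flfl 13.

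Of 17 regulators of secretory cells, 15 were tested, of which 3 rose and 0 fell, where 2.83% of all genes rose and 5.37% fell. The median log2 fold change of the list was 0.10. Creb3l4, a membrane-bound transcription factor of secretory cells, averaged 19.2 ± 1.33 CPM in OMP_IGF1R libraries and 12.5 ± 1.62 CPM in IGF1R_flfl libraries (log2 fold change 0.62, edgeR adjusted p = 0.00998), and its call held with each library left out. Spdef, a transcription factor of goblet and mucous gland cells, averaged 17.4 ± 0.751 CPM in OMP_IGF1R libraries and 12.2 ± 1.66 CPM in IGF1R_flfl libraries (log2 fold change 0.51, edgeR adjusted p = 0.0195). Alox15, a lipoxygenase of airway epithelium, averaged 106.9 ± 11.7 CPM in OMP_IGF1R libraries and 77.5 ± 11.9 CPM in IGF1R_flfl libraries (log2 fold change 0.47, edgeR adjusted p = 0.0397). The Spdef call was lost without OMP_IGF1R 11, 12 or 18 or IGF1R_flfl 1, and the Alox15 call was lost with any of 6 libraries left out, those other than IGF1R_flfl 2 and 3. Respiratory ciliated markers, which belong to neighbouring surface cells, were 2 of 12 lower and 0 higher, against 5.37% and 2.83% of all genes. Their sums were 694 to 830.0 CPM in OMP_IGF1R libraries and 746 to 1066 CPM in IGF1R_flfl libraries. The part of cell content in these secretory genes was not tested.

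Most enzymes of mucin O-glycosylation did not pass the test. Of 27 found, 24 were tested, of which 2 rose, 1 fell and 21 did not pass, where 8.20% of all genes were called in either direction, with a median log2 fold change of 0.03. Fut1, a fucosyltransferase that makes H antigen, rose (log2 fold change 0.64, 15.4 ± 1.82 CPM in OMP_IGF1R libraries and 9.88 ± 1.12 CPM in IGF1R_flfl libraries, edgeR adjusted p = 0.0124). Galnt6, one of the enzymes that attach the starting sugar to serine and threonine, rose (log2 fold change 0.53, 40.7 ± 3.03 CPM in OMP_IGF1R libraries and 28.2 ± 4.12 CPM in IGF1R_flfl libraries, edgeR adjusted p = 0.0181). St6galnac4, which adds sialic acid, fell (log2 fold change -0.38, 11.2 ± 0.414 CPM in OMP_IGF1R libraries and 14.6 ± 0.502 CPM in IGF1R_flfl libraries, edgeR adjusted p = 0.0160). The Galnt6 call was lost without OMP_IGF1R 12 or 18, and the St6galnac4 call without OMP_IGF1R 12.

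Of 19 genes of granule release and hydration, 18 were tested, of which 1 rose and 0 fell, where 2.83% of all genes rose and 5.37% fell. The median log2 fold change of the list was 0.11. The gene that rose was Marcks, a kinase substrate that takes part in mucin granule release, at 170.7 ± 8.20 CPM in OMP_IGF1R libraries and 127 ± 8.57 CPM in IGF1R_flfl libraries (log2 fold change 0.43, edgeR adjusted p = 0.00694). Marcks is expressed in many cell types, neurons among them. Of the 9 partners of membrane mucins, all tested, 0 were called, against 8.20% of all genes, and the median log2 fold change was 0.09. Src, a kinase that phosphorylates the Muc1 tail, had a log2 fold change of 0.14 (edgeR adjusted p = 0.204), and Lgals3, a lectin that binds mucin sugars, had 0.24 (edgeR adjusted p = 0.347).

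**Figure D5:**
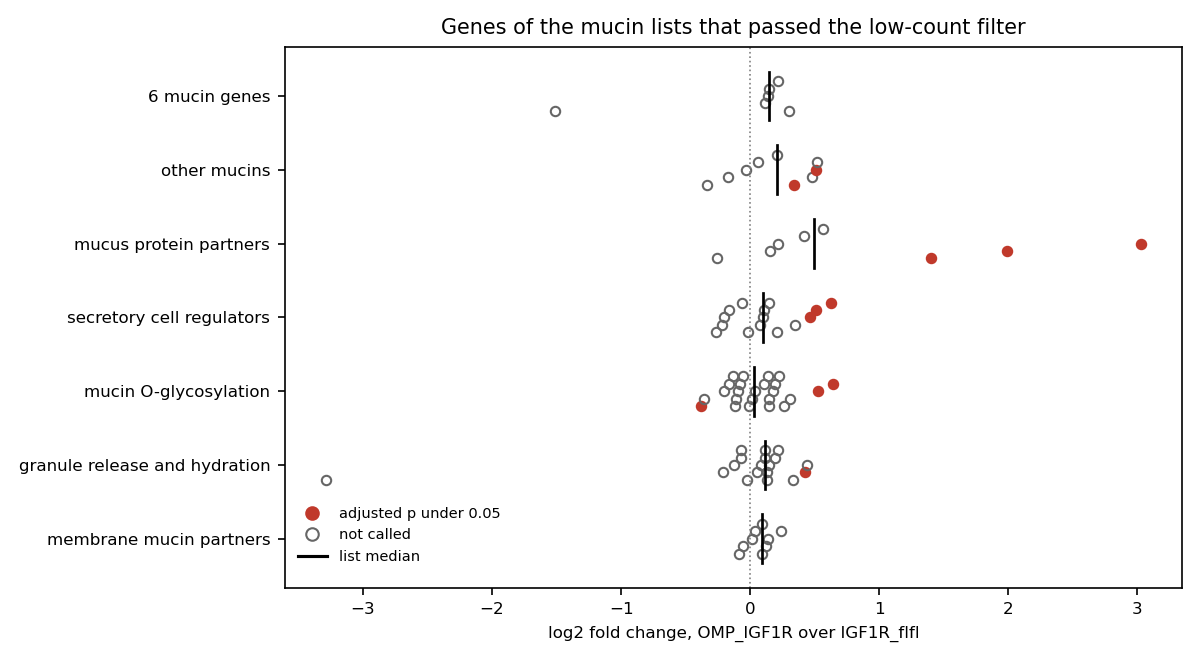
Log2 fold change, OMP_IGF1R over IGF1R_flfl (horizontal axis), of the 6 mucin genes and of the tested genes of 6 lists, with called genes filled and the list median as a black line. Among the lists, mucus protein partners hold the 3 highest values (1.40, 1.99 and 3.03), and all 6 mucin genes are unfilled.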

How the data were processed

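RNA was isolated from dissected olfactory epithelium, and stranded, poly(A)-enriched libraries were read as paired ends of 100 bases, per the labels' protocols. The deposited table holds whole-number read counts per gene and library, as its values show. The genome build was GRCm38 (mm10), and the tools named are SAMtools 1.2, Trim Galore 0.3.7, DESeq2 and TopHat2 2.0.14, per the submitters' processing notes. For the counting step, the program and strand setting were not given in the sources used here. The authors' deposited table of their own comparison holds p-values, raw and adjusted, a test score, log2 fold changes and a mean normalized signal per gene, per the file headers, with no stated direction. It was used for description alone.

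The test was the quasi-likelihood F-test of edgeR 4.0.16 under R 4.3.3, after TMM scaling and filterByExpr. P-values were adjusted by Benjamini-Hochberg over 17381 genes, with a threshold of 0.05. CPM use TMM library sizes, and no library was imputed or dropped in the main comparison. Log2 CPM for correlations used a prior count of 2. Per-length values used exon bases of GENCODE M21 within each row. Repeats were sought in the longest coding sequence as neighbouring in-frame units of 15 to 300 bases at 80% identity, and up to 1500 bases where none was found. The units shown or quoted for a gene are the most alike neighbouring pair of its repeated stretch, so other pairs match less well or equally. Within groups, the chi-square per gene of each pair was 11.4 to 103.5, and none was treated as a copy. The members, lists and tests were chosen with earlier results of these data known. Named genes were the members, up to 3 called genes of each list (the 2 with the smallest p where none was called), the 3 most alike genes per member, and the nearest neighbours. Mucus and gland genes named beside Muc5ac and Muc5b were chosen after their values were seen. Alternatives were DESeq2 1.42.0, limma 3.58.1 voom, other scalings and filters, leaving out each library, and leaving out IGF1R_flfl 2 and OMP_IGF1R 17. The tests were tried on simulated data.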

Additional observations from a re-analysis of the deposited data

Results flagged for a closer look

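Values far from the others of their group were found for 7 items, by the gap to the nearest library as a share of the group's whole range, with a limit of 0.829 for 4 libraries. Chance alone flags about 1 in 20 groups. Each member, each called gene of the lists and each marker sum was checked in both groups, so some flags arise by chance. Muc5ac was far from its group in OMP_IGF1R 11 (6.07 CPM, others 2.68 to 3.19 CPM, a share of 0.849) and in IGF1R_flfl 13 (38.7 CPM, others 0.724 to 1.47 CPM, a share of 0.980). Fcgbp was far from its group in IGF1R_flfl 13 (42.1 CPM, others 15.8 to 19.8 CPM, a share of 0.848), and Clca2 in OMP_IGF1R 17 (19.6 CPM, others 9.83 to 10.9 CPM, a share of 0.895). Marker sums stood apart for squamous cells in OMP_IGF1R 17 (601 CPM, others 7.87 to 14.8 CPM, a share of 0.988) and for skeletal muscle in OMP_IGF1R 17 (533 CPM, others 5.05 to 8.16 CPM, a share of 0.994). The sum for olfactory bulb and oligodendrocytes stood apart in IGF1R_flfl 2 (1905 CPM, others 112 to 131 CPM, a share of 0.989).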

How the results depend on the processing

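Of the 6 mucin genes, Muc1, Muc2, Muc4, Muc5b and Muc16 kept a positive log2 fold change and stayed uncalled under every scaling, filter, tool and left-out library tried. Muc5ac reversed and was called without IGF1R_flfl 13 (1.78), and its values with 1 library left out ran from -1.91 to 1.78. The number of members called ran from 0 to 1, and the 1 was Muc5ac. Over all genes, 1425 were called with all libraries and 569 to 1477 with 1 left out. With 1 left out, calls ran from 0 to 2 of the other mucins, 1 to 4 of the secretory cell regulators, 1 to 5 of the O-glycosylation genes, and 1 to 2 of the granule release genes. O-glycosylation calls, 3 in the comparison reported, were 5 with raw library totals and 6 with DESeq2. Granule release calls, 1 as reported, were 2 with DESeq2 size factors, upper-quartile factors, raw library totals, a filter of 1 CPM and DESeq2. The causes of these moves were not tested. Fits with 1 library left out have 3 libraries in 1 group. Under the other scalings the median over all genes was at most 0.06 on the log2 scale. No paired analysis was possible because the groups share no replicate numbers. Muc5ac rests on 20 to 37 reads in 3 of the libraries, where counting error is largest. Intervals of log2 fold changes for Muc1, Muc2 and Muc4 include 0 and differences up to 0.42 in size.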

Other observations

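In the authors' deposited table, whose direction is not stated, the adjusted p-values of the members were 0.0736 for Muc5b, 0.110 for Muc16, 0.417 for Muc1, 0.428 for Muc2 and 0.667 for Muc4, and none was listed for Muc5ac. The signs of its log2 fold changes were those of OMP_IGF1R over IGF1R_flfl here for every member. That table gives Muc5ac a log2 fold change of -0.10 (SE 0.0939), where DESeq2 here gave -1.51 (SE 1.26). How the authors' value was scaled is not stated, so its size cannot be set against the values given above. Leaving out IGF1R_flfl 2 and OMP_IGF1R 17 together, the libraries that stood apart in bulb and muscle markers, gave Muc5b a log2 fold change of 0.47 and an edgeR adjusted p of 0.0555. In that fit Muc5ac stood at -1.77 (edgeR adjusted p = 0.414). Fcgbp, Muc15, Muc20, Spdef and Galnt6 were called there as well (highest adjusted p by edgeR 0.0436), and St6galnac4 was not (0.0530).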
